A study of Homo sapiens with 4 samples.

Results

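The genes of the cohesin and condensin complexes were examined in senescent WI-38 cells, normal fibroblasts from human embryonic lung, with and without depletion of G3BP1. The set holds 10 genes chosen by name out of 58219 in the table: SMC1A, SMC3, RAD21, STAG2 and NIPBL for cohesin, and SMC2, SMC4, NCAPD2, NCAPG and NCAPH for condensin. All 10 had a mean of at least 10 normalized reads over the libraries, and all were tested. In both groups the cells were transfected with an siRNA, exposed to 10 Gy of ionizing radiation and harvested at day 8. The siCTL group received a scrambled control siRNA and the siG3BP1 group an siRNA against G3BP1, an RNA-binding protein of stress granules. Each group had 2 libraries of total RNA, called A and B, and values are given in that order. Nothing in the labels states that A and B were separate cultures, so p-values here measure only the spread between these libraries, which may be technical. A single siRNA against G3BP1 was used in these libraries, so effects of that sequence and of G3BP1 loss cannot be told apart. No library of dividing cells was analysed here.

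Cohesin is a ring formed by the ATPases SMC1A and SMC3 and the kleisin RAD21, with STAG1 or STAG2 bound to it. It is loaded by NIPBL and its partner MAU2, holds sister chromatids together until mitosis, and forms chromatin loops that halt at CTCF in dividing and non-dividing cells alike. Condensin is built on a related pair of ATPases, SMC2 and SMC4. These join the kleisin NCAPH with NCAPD2 and NCAPG to make condensin I, a form that compacts chromosomes in mitosis. Several condensin genes are known to be most active in dividing cells, whereas cohesin is needed throughout.

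The siRNAs are shown because they define the groups. Capitals mark the seed, bases 2 to 8 of the listed strand.
siG3BP1: uCAACAUGgcgaaucuuggtg
siCTL: aAGCCAAUucaucagcaaugg
The complement of the first 19 bases of siG3BP1 lies at position 356 of the canonical G3BP1 transcript, and siCTL has no such match there. The complement of the siG3BP1 seed, CATGTTG, is present in the canonical transcript of 1 of the 10 genes, NCAPH, where it occurs 3 times. It is present in 27.0% of the 13350 tested genes with such a transcript. A match of 7 bases is a description of the transcript and not a known target site.

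The subunit genes also differ in base composition, which is shown here because their changes are ordered by it below. The stretches are the central 100 bases of the longest coding exon of an SMC gene and a non-SMC gene of low GC content (SMC3, NCAPG) and of one of each with higher GC content (SMC1A, NCAPD2), from GRCh38 in the direction of transcription, with G and C in capitals.
SMC1A, chrX:53412074-53412173, minus strand, exon 6 of 25: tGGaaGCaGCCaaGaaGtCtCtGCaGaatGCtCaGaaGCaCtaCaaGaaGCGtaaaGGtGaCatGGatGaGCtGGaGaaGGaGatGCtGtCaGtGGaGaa
SMC3, chr10:110601711-110601810, plus strand, exon 24 of 29: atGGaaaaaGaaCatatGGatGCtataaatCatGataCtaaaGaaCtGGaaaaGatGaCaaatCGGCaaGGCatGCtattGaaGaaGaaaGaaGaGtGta
NCAPD2, chr12:6521868-6521967, plus strand, exon 15 of 32: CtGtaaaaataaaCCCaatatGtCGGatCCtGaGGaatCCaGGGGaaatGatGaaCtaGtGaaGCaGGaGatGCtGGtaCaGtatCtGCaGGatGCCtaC
NCAPG, chr4:17812981-17813080, plus strand, exon 3 of 21: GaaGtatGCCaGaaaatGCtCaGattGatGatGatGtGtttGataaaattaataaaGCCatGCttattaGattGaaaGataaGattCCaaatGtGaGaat
The stretch holds 49 G or C in SMC1A and 45 in NCAPD2, against 34 in SMC3 and 30 in NCAPG. Over the whole coding sequence, GC content was 50.4% in SMC1A, 52.4% in NCAPD2 and 48.9% in NCAPH, and between 37.0% in SMC4 and 43.3% in RAD21 in the other 7 genes. At the third codon position, where a base change often leaves the protein unaltered, the same 3 genes had 64.8%, 58.2% and 51.4%, and the other 7 had between 30.1% and 37.9%.

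The depth was 16944404 and 22745000 reads counted in genes in siCTL A and B, and 17169469 and 19233994 in siG3BP1. G3BP1 RNA was at 2675 and 2522 normalized reads in siCTL and at 201 and 271 in siG3BP1, a log2 fold change of -3.47 (SE 0.34, n = 2 libraries a group, adjusted p = 9.10e-21, limma), so the depletion matched the labels. All 7 fibroblast markers (COL1A1, COL1A2, COL3A1, VIM, THY1, PDGFRB and DCN) exceeded 1000 normalized reads in every library. Of 5 markers each, 4 epithelial, 3 endothelial and 4 muscle genes stayed under 10 in every library, as did 2 of 4 immune markers, with KRT5, CDH5, MYH1 and MYH2 at 0. The summed markers ranged from 6.74 to 8.78 normalized reads in siCTL and from 8.19 to 16.5 in siG3BP1 for epithelium, from 69.9 to 79.8 and 92.4 to 105 for immune cells, and from 3.19 to 31.3 and 7.70 to 53.3 for muscle. The endothelial sum, 3018 to 4480 in siCTL and 1007 to 1471 in siG3BP1, was nearly all TEK, and the part of these markers in the results was not tested. How far a library lay from the mean of each gene followed exonic GC content across 13350 genes, with Spearman's rho of -0.79 and -0.71 in siCTL and of 0.77 and 0.62 in siG3BP1, given as a description since genes are not independent.

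Of the 10 subunit genes, 7 had less RNA in siG3BP1 than in siCTL past the threshold of an adjusted p of 0.05, none had more, and 3 did not pass the test. The 7 were SMC3, RAD21, STAG2 and NIPBL of cohesin and SMC2, SMC4 and NCAPG of condensin. SMC1A, NCAPD2 and NCAPH did not pass. Among all 13422 genes tested, 30.5% were lower and 25.9% were higher. The median log2 fold change of the 10 genes was -1.64, against 0.04 for all genes tested. Both siG3BP1 libraries lay below both siCTL libraries for 9 of the 10 genes, which held for 40.5% of all genes tested, and NCAPD2 lay above in both. In bulk RNA, fewer cells with a transcript and less of it per cell cannot be told apart. Without siCTL A, and also without siCTL B, limma lost the calls of these 7 genes. Each of these fits takes its spread from the siG3BP1 libraries alone. Those lay further apart than the siCTL libraries, with a chi-square per gene of 86.7 against 30.4. The loss of calls therefore cannot show whether the changes depend on a siCTL library. Calls were lost across the whole table there, with 0.797% and 0.0894% of all genes called lower. No log2 fold change of the 10 genes turned its sign there, that of SMC3 being -1.84 and -1.47. Without siG3BP1 B it called 9 lower and NCAPD2 higher, against 37.6% lower and 34.1% higher among all genes.

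**Figure D1:**
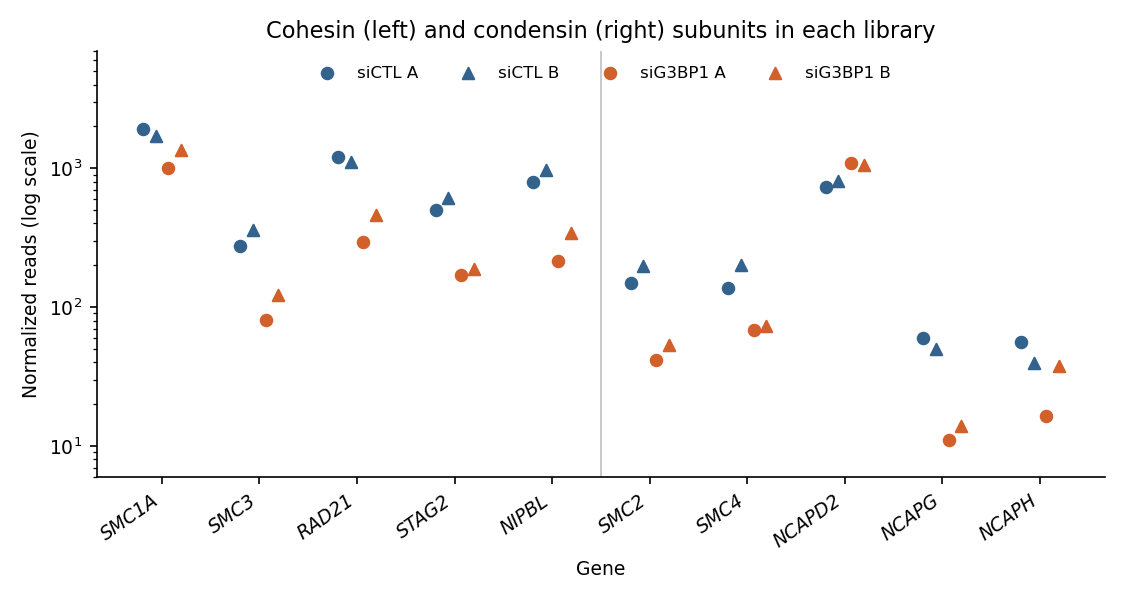
Normalized reads of each subunit gene (vertical axis, log scale) in the 4 libraries, with circles for library A, triangles for library B, blue for siCTL and orange for siG3BP1. The orange symbols lie below the blue ones for 9 genes, from SMC1A (1009 and 1348 against 1929 and 1705) to NCAPG (11.0 and 13.9 against 59.9 and 50.3), and above them for NCAPD2.

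In the cohesin ring, SMC3 fell while its partner SMC1A did not pass the test. SMC3 (10:110567691-110604636 of GRCh38, plus strand) measured 275 and 357 normalized reads in siCTL and 80.3 and 122 in siG3BP1. The groups did not overlap, and the log2 fold change was -1.66 (SE 0.34, adjusted p = 4.51e-05, limma). SMC1A (X:53374149-53422728, minus strand), the more abundant of the pair, measured 1929 and 1705 in siCTL and 1009 and 1348 in siG3BP1. Its groups did not overlap either, but the log2 fold change of -0.64 (SE 0.34, adjusted p = 0.0905, limma) missed the threshold, with a 95% interval from -1.29 to 0.02. Both genes were lower in siG3BP1 A than in siG3BP1 B.

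RAD21, the kleisin that closes the ring and that separase cuts at anaphase, fell to about the same extent as SMC3. RAD21 (8:116845935-116874866, minus strand) measured 1212 and 1104 normalized reads in siCTL and 296 and 456 in siG3BP1, a log2 fold change of -1.65 (SE 0.34, adjusted p = 3.32e-05, limma). STAG2 (X:123960212-124422664, plus strand), the subunit that docks cohesin to CTCF and other partners, measured 499 and 614 in siCTL and 170 and 187 in siG3BP1. Its log2 fold change was -1.63 (SE 0.34, adjusted p = 4.45e-05, limma), and its siG3BP1 libraries were closer to each other than those of RAD21. NIPBL (5:36876759-37066413, plus strand), the loader, measured 795 and 974 in siCTL and 216 and 342 in siG3BP1, a log2 fold change of -1.70 (SE 0.34, adjusted p = 2.37e-05, limma). For all 3 genes the lower siCTL library lay well above the higher siG3BP1 library, 1104 against 456 for RAD21, 499 against 187 for STAG2 and 795 against 342 for NIPBL.

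In condensin, the SMC pair fell together. SMC2 (9:104094260-104141417, plus strand) measured 149 and 197 normalized reads in siCTL and 41.8 and 53.3 in siG3BP1, a log2 fold change of -1.85 (SE 0.37, adjusted p = 2.10e-05, limma). SMC4 (3:160399274-160434962, plus strand) measured 137 and 200.4 in siCTL and 68.2 and 72.9 in siG3BP1. Its fall was the smallest of the 7, with a log2 fold change of -1.23 (SE 0.36, adjusted p = 0.00269, limma). Exons of IFT80 and TRIM59 overlap those of SMC4 from the other strand, by 19.0% of its exonic bases for the gene that shares more. The methods call the libraries stranded, but how the counting used the strand is not given in the sources used here. Had it not been used, the reads of such genes could not be told apart.

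The non-SMC subunits of condensin I went in different directions. NCAPG (4:17810902-17844862, plus strand), a HEAT-repeat subunit, measured 59.9 and 50.3 normalized reads in siCTL and 11.0 and 13.9 in siG3BP1, from 75, 82, 10 and 17 reads. Its log2 fold change of -2.10 (SE 0.47, adjusted p = 1.18e-04, limma) was the largest fall of the 10 genes, at the lowest mean level of the 10 in siG3BP1. Of its exonic bases, 33.7% also lie in exons of the antisense gene LCORL, while such an overlap was at most 5.92% in the 8 genes other than SMC4 and NCAPG. NCAPD2 (12:6493356-6531955, plus strand), the other HEAT-repeat subunit, measured 730 and 802 in siCTL and 1096 and 1050 in siG3BP1. It was the only one of the 10 with more RNA in both siG3BP1 libraries, with a log2 fold change of 0.49 (SE 0.34, adjusted p = 0.202, limma; 95% interval from -0.17 to 1.15) that did not pass the test. NCAPH (2:96335787-96373845, plus strand), the kleisin, measured 55.9 and 39.8 in siCTL and 16.5 and 37.7 in siG3BP1, from 70, 65, 15 and 46 reads. The B libraries nearly met, and the log2 fold change of -0.90 (SE 0.44, adjusted p = 0.0640, limma) missed the threshold. Summed over its 5 genes, condensin RNA was 1132 and 1289 normalized reads in siCTL and 1234 and 1227 in siG3BP1, since NCAPD2 outnumbers the other 4 together in every library. The cohesin sum was 4710 and 4753 in siCTL and 1771 and 2455 in siG3BP1.

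**Figure D2:**
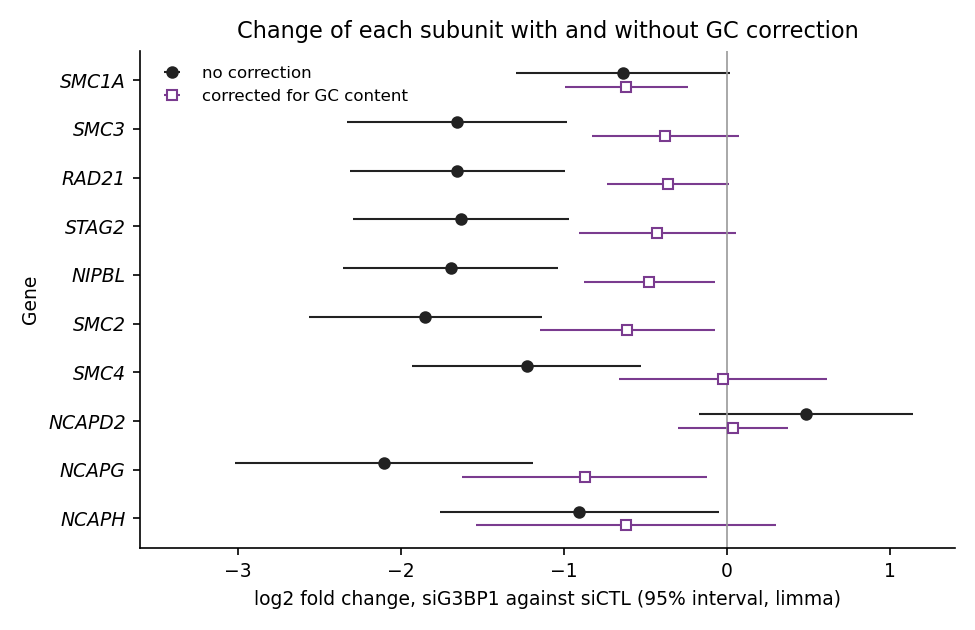
log2 fold change of each subunit gene, siG3BP1 against siCTL (horizontal axis), with its 95% interval from limma, without correction (black circles) and with the GC trend of every library removed (open squares). Without correction 7 intervals lie far below 0, and after it the estimates lie between -0.87 (NCAPG) and 0.04 (NCAPD2).

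The genes that fell were those of low GC content. Exonic GC content was between 36.5% (RAD21) and 38.8% (STAG2, SMC4) in the 7 genes called lower, and 46.2% in NCAPH, 47.9% in SMC1A and 51.9% in NCAPD2. When all tested genes were ordered by GC content and divided into 10 equal parts, the median log2 fold change ran from -1.35 in the lowest part to 0.99 in the highest. The 7 falling genes lie in the lowest parts, 1 and 2, where 80.1% of all genes were called lower. The other 3 lie in parts 5 and 7, where 12.0% were called lower. On the log2 scale, the difference from the median of the gene's own part was -0.75 for NCAPG, -0.69 for NCAPH, -0.50 for SMC2, -0.42 for SMC1A and -0.40 for STAG2. It was between -0.35 and -0.13 for NIPBL, SMC3, RAD21 and NCAPD2, and 0.0021 for SMC4. NCAPG stood at the percentile 3.07 of its part and SMC2 at 8.99, whereas SMC4 was at 50.2.

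**Figure D3:**
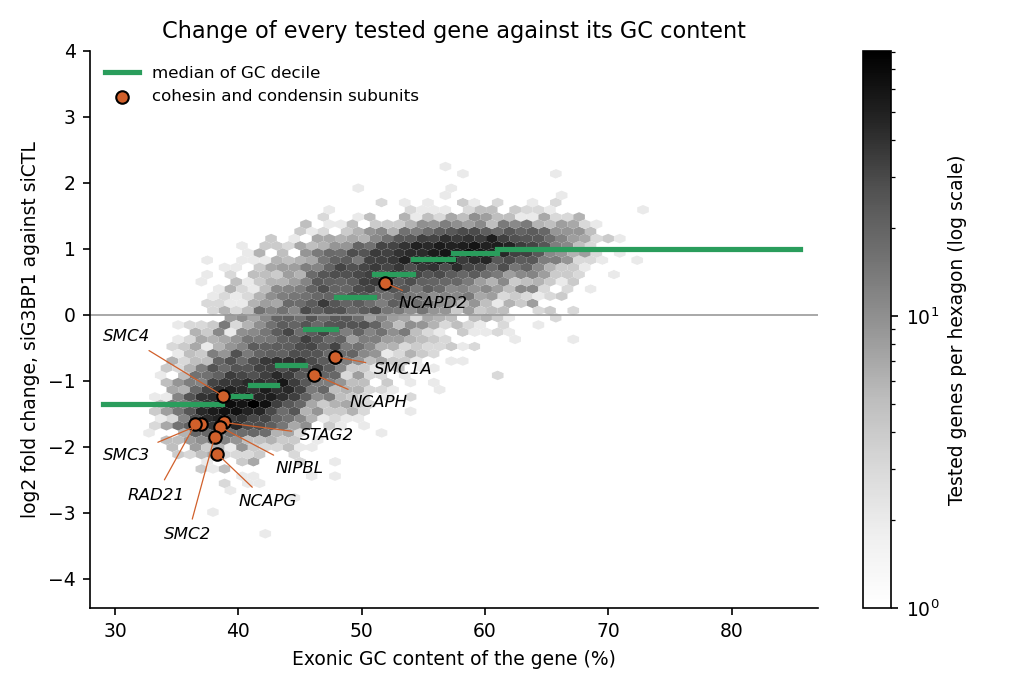
log2 fold change, siG3BP1 against siCTL, of every tested gene (vertical axis) against its exonic GC content in percent (horizontal axis). Grey hexagons give the number of genes, green bars the median of each of 10 equal parts by GC content (-1.35 to 0.99), and orange points the 10 subunit genes, of which 9 lie below the median of their part.

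Once the GC trend of every library had been removed, limma called none of the 10 genes, and 0.00749% of 13350 genes in all, which is G3BP1 alone. Of the 10 genes, 9 still had a negative log2 fold change and 4 had an unadjusted p under 0.05 in either direction. The same held for 6530 and 3775 of the 13350 genes. The median of the 10 was -0.45, against 0.01 for all genes. SMC1A was at -0.62 (SE 0.15, adjusted p = 0.0809, limma), with an interval from -0.99 to -0.24, but at -0.41 (adjusted p = 0.135) when the GC content of the canonical transcript was used. NCAPG was at -0.87 (SE 0.31, adjusted p = 0.139), SMC2 at -0.61 (SE 0.22, adjusted p = 0.146) and NIPBL at -0.47 (SE 0.16, adjusted p = 0.134), with intervals that stay below 0. SMC4 was at -0.02 (SE 0.26) and NCAPD2 at 0.04 (SE 0.14), both with intervals that include 0. The intervals of SMC3 (-0.38), RAD21 (-0.36), STAG2 (-0.43) and NCAPH (-0.62) also include 0. The part of GC content in the changes of these genes was not tested beyond this correction.

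Levels of different genes were compared per kb of the canonical transcript. In siCTL, RAD21 was highest at a mean of 316 normalized reads per kb, followed by SMC1A at 187, NCAPD2 at 159, STAG2 at 90.1, NIPBL at 84.8, SMC3 at 57.2, SMC4 at 33.0, SMC2 at 29.2, NCAPG at 12.0 and NCAPH at 7.94. STAG2 and NIPBL overlapped between libraries, as did SMC4 and SMC2, while the other neighbours did not. In siG3BP1 the order began with NCAPD2 at 222, then SMC1A at 121, RAD21 at 103, STAG2 at 28.9, NIPBL at 26.7, SMC3 at 18.3, SMC4 at 13.8, SMC2 at 8.02, NCAPH at 4.49 and NCAPG at 2.72. There SMC1A overlapped RAD21, NIPBL overlapped both STAG2 and SMC3, and NCAPH overlapped NCAPG. NCAPD2, behind RAD21 and SMC1A in siCTL, was thus the most abundant of the 10 per kb in both siG3BP1 libraries, at 227 and 218.

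Ratios within a library do not depend on its scaling, and 7 pairs of partners were compared this way. The level of SMC1A per kb was 3.98 and 2.72 times that of SMC3 in siCTL and 7.15 and 6.28 times in siG3BP1. NCAPD2 to NCAPG was 11.6 and 15.2 in siCTL and 94.8 and 71.6 in siG3BP1. NCAPD2 to NCAPH was 16.3 and 25.2 in siCTL and 83.1 and 34.8 in siG3BP1. So in each of these pairs the partner with higher GC content made up more of the pair after depletion. SMC2 to SMC4, of like GC content, was 0.938 and 0.847 in siCTL and 0.529 and 0.630 in siG3BP1. RAD21 to STAG2 was 4.10 and 3.03 in siCTL and 2.93 and 4.12 in siG3BP1, and this was the only pair of the 7 whose groups overlapped. Among 13422 single genes, both siG3BP1 libraries lay below both siCTL libraries for 5442 and above them for 5744. The share for other pairs of genes was not computed, so the count cannot be called particular to these partners. The loader pair, NIPBL to MAU2, was 0.661 and 0.781 in siCTL and 0.0904 and 0.200 in siG3BP1. The kleisin-associated pair NCAPG to NCAPG2, of condensin I and II, was 0.326 and 0.320 in siCTL and 0.294 and 0.208 in siG3BP1. With 2 libraries a group, the exact two-sided permutation test over 6 assignments cannot go below p = 0.333, which 6 of the 7 ratios reached (adjusted p = 0.389 over the 7 pairs).

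A wider list of 35 genes held other cohesin subunits and regulators, CTCF, condensin II, the SMC5/6 complex, SMCHD1 and partners of mitotic chromosomes, and 29 of them could be tested. Of these, 18 were lower in siG3BP1, 2 were higher and 9 did not pass, against 30.5% lower and 25.9% higher among all genes, with a median log2 fold change of -1.42. Their calls also followed GC content, with 16 of 19 genes under 45% called lower and none higher. At 45% or above, 2 of 10 genes were called lower and 2 higher. Among all tested genes, the share called lower fell from 82.8% in part 1 by GC content to 47.1% in part 4, which ends at 45.4%. From part 5 to part 10 it fell from 21.3% to 0.225%, while the share called higher rose from 8.98% to 68.9%. The 4 with the smallest p were TOP2B, PDS5B, TOP2A and SMCHD1. TOP2B, a topoisomerase that works with cohesin at loop anchors, measured 840 and 1213 normalized reads in siCTL and 177 and 296 in siG3BP1 (log2 fold change -2.14, adjusted p = 8.68e-08, limma). PDS5B, a regulator bound to the cohesin ring, measured 582 and 682 in siCTL and 118 and 220 in siG3BP1 (log2 fold change -1.97, adjusted p = 1.11e-06, limma). TOP2A, the topoisomerase of mitotic chromosomes, measured 313 and 301 in siCTL and 80.3 and 84.4 in siG3BP1 (log2 fold change -1.89, adjusted p = 5.59e-06, limma). SMCHD1, a separate SMC-like protein of the inactive X chromosome, measured 918 and 1108 in siCTL and 254 and 365 in siG3BP1 (log2 fold change -1.73, adjusted p = 1.77e-05, limma). In these 4 genes no siG3BP1 library reached a siCTL library, which held for 40.5% of all genes tested. Since the 4 were picked by p from the same comparison, this adds no support.

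The partners and paralogs of the 10 genes did not all move with them. STAG1, the alternative to STAG2, fell (log2 fold change -1.53, adjusted p = 1.15e-04, limma). The release factor WAPL (-1.32) and PDS5A (-1.42) fell as well, as did SMC5 (-1.58) and SMC6 (-1.44) of the related repair complex. MAU2, the partner of NIPBL, measured 559 and 579 normalized reads in siCTL and 1108 and 795 in siG3BP1 (log2 fold change 0.72, adjusted p = 0.0555, limma), and CTCF was at -0.55 (adjusted p = 0.148), so neither passed. In condensin II, which shares SMC2 and SMC4 with condensin I, NCAPG2 fell (-1.75, adjusted p = 5.87e-05, limma), NCAPH2 rose (1.03, adjusted p = 0.00714) and NCAPD3 was at -0.15 (adjusted p = 0.705). NCAPG2, with a GC content of 41.6%, went the way of NCAPG. NCAPH2, with 60.1%, rose, while NCAPH of condensin I, with 46.2%, was at -0.90 and did not pass (adjusted p = 0.0640, limma). The other genes of the list, 6 in all, had too few reads to test. These were the germline cohesin genes SMC1B (0 to 0.613 normalized reads over the 4 libraries), REC8 (2.39 to 10.7), RAD21L1 (2.45 to 10.4) and STAG3 (2.20 to 5.74), and ESCO2 (0 to 19.0) and SGO1 (2.20 to 12.8), which act on cohesion in dividing cells. After the GC correction none of the 29 genes was called by limma.

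**Figure D4:**
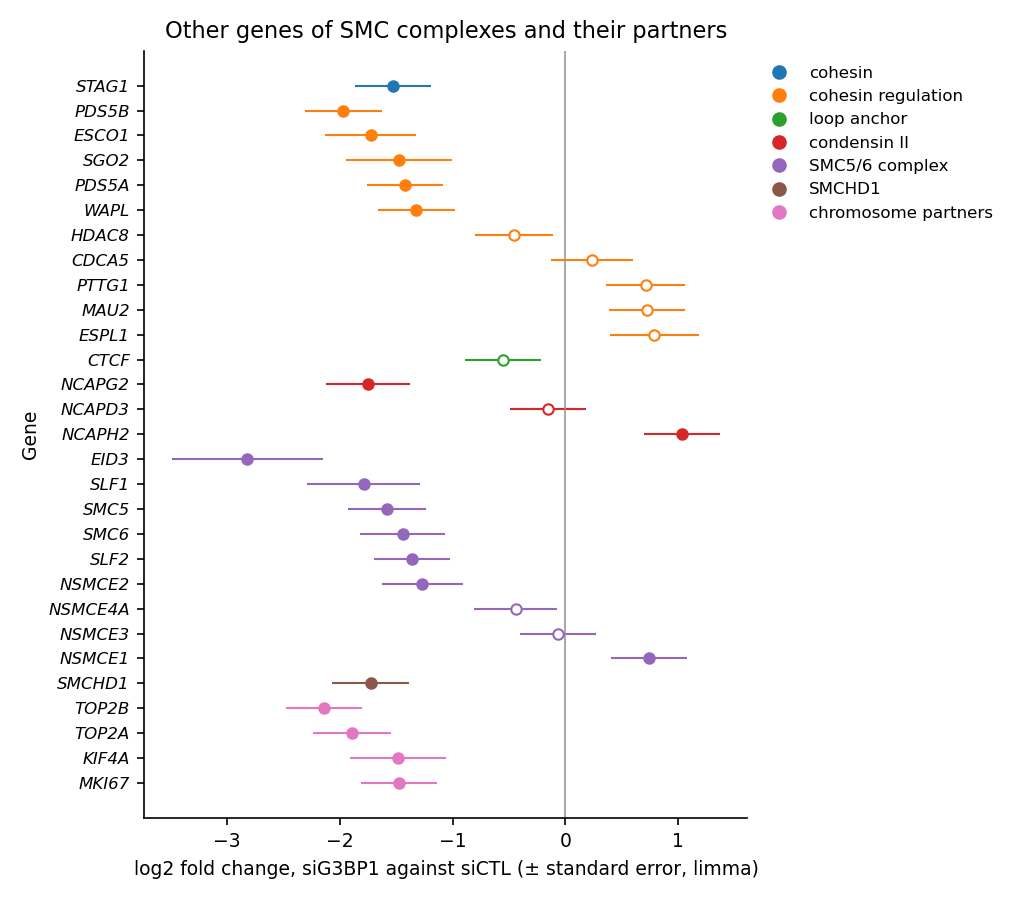
log2 fold change, siG3BP1 against siCTL (horizontal axis, with the standard error from limma), of the 29 tested genes of the related list, coloured by complex or role. Filled points passed an adjusted p of 0.05 (18 lower, 2 higher) and open points did not. Genes run from -2.82 (EID3, of the SMC5/6 complex) to 1.03 (NCAPH2).

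Because condensin genes are tied to division, 14 proliferation markers were read from the same fit. Of these, 7 were lower, none was higher and 7 did not pass, against 30.5% lower and 25.9% higher among all genes, with a median log2 fold change of -0.66, which was -0.64 after the GC correction. TOP2A is named above. CCNA2, cyclin A2, measured 89.4 and 57.6 normalized reads in siCTL and 9.90 and 30.3 in siG3BP1 (log2 fold change -2.01, adjusted p = 7.51e-05, limma). RRM2, a subunit of ribonucleotide reductase, measured 465 and 343 in siCTL and 117 and 172 in siG3BP1 (log2 fold change -1.49, adjusted p = 1.76e-04, limma). Unlike the 7 falling subunit genes, RRM2 has an exonic GC content of 48.8%, in a part where 8.62% of genes were called lower. Its value after the correction by exonic GC content was -1.59 (adjusted p = 0.0628, limma). The canonical transcript of RRM2 has a lower GC content, 42.1%, so how far RRM2 departs from the GC trend depends on the annotation used. The summed level of the 14 markers was 3810 and 3301 in siCTL and 2367 and 2547 in siG3BP1. Their part in the changes of the condensin genes was not tested.

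The mean profile of the 10 genes, as log2 values centred on each gene's mean, was 0.59 and 0.69 in siCTL A and B and -0.86 and -0.43 in siG3BP1. Outside the set, the 5 protein-coding genes nearest to it among 11859 were FAM214A, FNIP2, PUM2, UEVLD and ECHDC1, at Euclidean distances of 0.0166 to 0.0384 over the 4 libraries. Their log2 fold changes ranged from -1.30 to -1.25 and their GC contents from 38.8% to 42.1%. With 4 libraries many genes share such a profile.

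Promoters were searched for motifs of cell cycle genes as a description. Of the 10 genes, 9 matched the RefSeq promoter table of GRCh38.p14, with 14 start sites, and the 250 bases before each start were searched on both strands. The CHR element (TTTGAA), which the MuvB core binds at genes of mitosis, was found in 4 of the 9 genes, against 16.1% of all 27305 genes, and in 4 of the 14 promoters, against 13.3% of all 35116. The 4 sites are shown with 60 bases each, capitals marking the element (TTCAAA on the reverse strand) and, in NCAPD2, a CCAAT box on the reverse strand (ATTGG).
SMC3, chr10:110567517-110567576, plus strand: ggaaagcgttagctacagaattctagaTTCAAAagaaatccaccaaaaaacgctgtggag
SMC4, chr3:160399548-160399607, plus strand: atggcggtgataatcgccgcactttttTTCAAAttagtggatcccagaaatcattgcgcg
NCAPD2, chr12:6493930-6493989, plus strand: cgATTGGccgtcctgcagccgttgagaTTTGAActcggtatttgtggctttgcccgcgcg
NCAPG, chr4:17810917-17810976, plus strand: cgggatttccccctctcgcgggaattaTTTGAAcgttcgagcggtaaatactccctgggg
The element begins 151 bases before the start in SMC3, 75 in SMC4, 145 in NCAPD2 and 35 in NCAPG. It was thus present in 3 genes that fell and in NCAPD2, which did not. The NF-Y box (CCAAT) was found in 3 of the 9 genes (STAG2, NCAPD2 and NCAPH), against 37.0% of all genes. An E2F site (TTTCCCGC, TTTCGCGC, TTTGCCGC or TTTGGCGC) was found in 3 of the 9 genes (SMC1A, STAG2 and NIPBL), against 3.40% of all genes. No binding was measured in these data.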

How the data were processed

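Total RNA of 4 WI-38 libraries (2 siCTL, 2 siG3BP1) was sequenced. According to the methods and the submitters' processing notes, the authors trimmed reads with Trimmomatic 0.35, aligned them with STAR to GRCh38 (Gencode 26), took read counts from STAR, which they normalized with DESeq2 1.22.1, and TPM or FPKM values from RSEM. The libraries were stranded. The notes also name TopHat2 2.0.10 and mouse builds, with no role. The deposited values are a signal, read counts scaled by 1 size factor a library, and undoing the scaling gave whole reads for 100% of values (tolerance 1e-06). The authors' own comparison columns in the deposited table (mean signal, log2 fold changes and log2 group means, standard errors and other score columns, p-values) were not used.

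The 13422 genes whose mean reached 10 normalized reads were tested with limma 3.58.1 in R 4.3.3 (mean-variance trend, two-sided, log2(value + 0.5), Benjamini-Hochberg over all genes, threshold 0.05). Fold changes on that scale understate changes of low genes. limma's prior degrees of freedom were infinite, so standard errors follow a trend over genes, and 4.21 after the GC correction. The GC correction fitted a loess trend (span 0.3) of centred log2 values on GC content in every library and subtracted it. GC content, lengths and transcripts came from Gencode 44, which matched 57437 of the 58219 gene IDs and 99.5% of tested genes. The tests were checked on simulated data, where a GC trend was added only for the GC-corrected fit. The uncorrected tests were therefore not checked under a GC trend such as that of these libraries. Alternatives were other pseudocounts, filters and scalings, the letter as a replicate block, a test restricted to protein-coding genes, each library left out, edgeR 4.0.16 and DESeq2 1.42.0 on recovered reads, and, chosen after seeing the data, corrections for GC content of the canonical transcript and for length. A count of 0 allows up to 3 reads, and this covers counting error only.

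Members and gene lists were chosen with earlier results of these data known. Named genes are the 10 members, G3BP1, the 4 related and 3 proliferation genes with the smallest p, the related genes not tested and the 5 nearest profiles. The paralogs and partners (STAG1, MAU2, WAPL, PDS5A, CTCF, SMC5, SMC6, condensin II) and EID3 were named after their values were seen. Protein sequences were not used here, and 1 marker of the lists is not reported here.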

Additional observations from a re-analysis of the deposited data

How the results depend on the processing

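The same 7 subunit genes were called lower, and none higher, with other pseudocounts (1 and 5), no filter on low values, protein-coding genes only, edgeR and DESeq2. In that order, 4097 and 4091 of 13422, 3987 of 27536, 3897 of 11869, and 4298 and 3564 of 13422 genes were lower. A minimum mean of 50 removed NCAPG and NCAPH from the test and left 6 of 8 called, against 3504 of 10620 genes lower. TMM scaling added NCAPH (adjusted p = 0.0469, limma) and quantile normalization added SMC1A (adjusted p = 0.0215, limma). These 2 settings called 4338 and 3540 of 13422 genes lower. The GC correction left 0 of 10 genes called by limma, and so did the correction by the canonical transcript, where SMC4 turned to 0.0703 (adjusted p = 0.878). The length correction called the same 7 genes lower and 1 higher, NCAPD2 (log2 fold change 0.75, adjusted p = 0.0410, limma). Among 13350 genes it called 3140 lower and 3223 higher. It moved SMC1A to -0.16 (adjusted p = 0.656, limma). Leaving out each library in turn gave 0 to 9 of the 10 genes lower and 0 to 1 higher, 0 to 21 of the 29 related genes lower and 0 to 4 higher, and 12 to 5050 genes of the table lower and 5 to 4575 higher. Both low ends came from leaving out a siCTL library, which leaves 1 sample in that group that is assumed to vary like the other. Of the related genes, 1 was called higher without a filter, with TMM scaling and with edgeR, 5 with quantile normalization, and 0 in either direction under both GC corrections. In the whole table each GC correction called 1 gene lower and 0 higher by limma, with 3775 genes at an unadjusted p under 0.05 by exonic GC content.

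The labels do not say what the letters A and B mark. Same-letter libraries deviated together (correlation 0.305, and 0.477 after the GC correction), but 2 pairs are too few to read a pairing from. With the letter as a replicate block, 7 subunit genes stayed lower, 1 related gene was higher, and 3664 genes were lower and 2380 higher. With the replicate block and the GC correction, 3 subunit genes were called lower (SMC1A, NIPBL and SMC2), 8 related genes were lower and 3 higher, and 1923 genes of the table were lower and 1962 higher. The depth limits NCAPG and NCAPH most, with 10 and 15 reads in siG3BP1 A.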
